A study of Mus musculus with 3 samples.

Results

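Foxp3 regulatory T cells (Tregs) were isolated in silico from single-cell transcriptomes of kidneys of folic acid (FA)-treated wild-type (WT) and Aoah-/- mice. A barcode, which stands for the RNA captured in a single droplet, was kept when it held at least 1672 unique molecular identifiers (UMIs, each standing for 1 captured RNA molecule), at least 200 detected genes and at most 50% mitochondrial UMIs. A kept barcode was gated as a Treg when it held a UMI of a CD3 chain gene (Cd3d, Cd3e or Cd3g) and either a UMI of Foxp3 or UMIs of Ctla4, Il2ra and Cd4 together. It also had to lack Cd8a and Cd8b1, to hold at most 2 UMIs of the B cell and myeloid genes Cd79a, C1qa and Lyz2, and at most 2 of the tubule genes Lrp2, Slc34a1 and Slc12a1. The members were thus chosen by measured UMIs of these genes. This gate held 238 of 48404 kept barcodes (73281 were deposited), 205 of them through Foxp3 and 33 through the other route. The comparison cells were 585 other CD4 cells, which held a CD3 gene and Cd4, met the same exclusions and lay outside the gate, and 2379 CD8 cells, which held a CD3 gene and Cd8a or Cd8b1 without Cd4.

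Tregs are CD4 lymphocytes that restrain other immune cells, and the transcription factor Foxp3 sets and maintains their identity. They carry the high-affinity interleukin-2 receptor chain encoded by Il2ra, which makes them dependent on interleukin-2 from other T cells, and the inhibitory receptor Ctla4, which takes costimulatory ligands away from antigen-presenting cells. In non-lymphoid tissue a part of the Tregs carries the interleukin-33 receptor Il1rl1 (ST2) and the growth factor amphiregulin (Areg), and such cells are known for tissue repair, including in the injured kidney.

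The 3 libraries came from perfused and digested kidneys of mice of 6 to 8 weeks per the labels (another age stands in the legends of the study), taken on day 14 after FA, which injures the tubules and leads to fibrosis. Aoah encodes acyloxyacyl hydrolase, a lipase that inactivates bacterial lipopolysaccharide. There were 2 Aoah-/- libraries (replicates 2 and 3) and 1 library of WT littermates (replicate 3), and no kidney without FA was analysed here. The deletion was present in every cell of the animal and had been backcrossed to C57/BL6J, so that an effect on T cells themselves and an effect through the kidney or other leukocytes cannot be told apart. With 1 WT library, which gives no spread of its own, no test between genotypes was made, and the p-values below measure the spread between these 3 libraries in a comparison of populations within each library.

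Values for the 3 libraries are given in the order Aoah-/- replicate 2, Aoah-/- replicate 3 and WT replicate 3. The deposited libraries held 167222984, 161015021 and 158551992 UMIs. Aoah itself was at 6.78, 6.19 and 18.3 counts per 1000000 UMIs (CPM) over all kept barcodes, lower in both Aoah-/- libraries than in the WT library. Among the gated cells it had 0, 0 and 1 UMI, so the genotype could not be read from the Tregs at this depth, and whether the counted Aoah tags lie in the deleted part is not given in the sources used here. The gate held 58, 108 and 72 cells with 271507, 490582 and 307092 UMIs in all and a median of 3543, 2992.5 and 3108 UMIs per cell. Other CD4 cells numbered 176, 240 and 169 and had medians of 2963, 3184 and 3002 UMIs, so depth per cell was of the same order in both populations. Libraries shared 172 (Aoah-/- replicates 2 and 3), 171 (Aoah-/- replicate 2 and WT) and 176 (Aoah-/- replicate 3 and WT) deposited barcode sequences. No shared barcode was gated in both libraries of a pair, and 2 gated cells of the Aoah-/- replicates had a barcode that the other Aoah-/- library also kept.

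The genes of the gate are described without a test, since they chose the cells. Foxp3, which lies at chrX:7573644-7595245 (mm10), was at 361, 322 and 322 CPM in the gated cells and by construction at 0 in other CD4 cells. Ctla4 (chr1:60887000-60915832) was at 902, 850.0 and 1231 CPM in the gated cells and at 199, 258 and 209 CPM in other CD4 cells. Il2ra (chr2:11642807-11693193) was at 279.9, 247 and 173 CPM and at 5.82, 9.25 and 14.2 CPM in the same order of populations. Ctla4 was thus also present outside the gate. The low Il2ra level outside was partly set by the rule, which moved CD4 cells with both Ctla4 and Il2ra into the gate. A Ctla4 UMI was found in 56, 95 and 64 members and an Il2ra UMI in 33, 54 and 26. Cd4 was detected in only 29, 54 and 41 members, although all other CD4 cells held it by rule, and its level was 162, 159 and 169 CPM in the gate and 378, 426 and 379 CPM outside.

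Detection of Foxp3 was shallow. Of the members, 17, 49 and 42 had exactly 1 Foxp3 UMI, 32, 43 and 22 had 2 or more, and the most in a cell was 7, 5 and 6. All kept barcodes with a Foxp3 UMI numbered 76, 147 and 80. Of these, 11, 25 and 7 lacked a CD3 gene, 7, 11 and 3 held a Cd8 gene, and 9, 19 and 6 passed a limit on B cell, myeloid or tubule genes. Cells that should lack Foxp3 gave the background of free RNA. Foxp3 was found in 0 of 953, 0 of 483 and 1 of 535 B cells (median 3984, 2532 and 2472 UMIs), where a count of 0 allows a share of up to 0.315% and 0.621% in the first 2 libraries. It was found in 4 of 924, 5 of 1072 and 3 of 383 CD8 cells, or 0.433%, 0.466% and 0.783%, at median depths of 2640, 3056 and 3232 UMIs. In cells with a CD3 gene and Cd4 within the same limits the share was 9.76%, 12.9% and 15.7%, above the CD8 share in each library. Thinned to the UMI floor, these shares were 7.80%, 8.16% and 8.10% of CD4 cells and 0.433%, 0.187% and 0.261% of CD8 cells. The other gate genes were less specific, since CD8 cells held a Ctla4 UMI in 11.4%, 12.4% and 16.4% and an Il2ra UMI in 1.08%, 1.12% and 2.09%.

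At the edges of the rule, the lowest UMI total of a member was 1752, 1691 and 1707. Barcodes under the floor that met the rest of the gate numbered 1, 0 and 3. The floor equals the lowest total in the table of Aoah-/- replicate 3, whereas the other 2 tables reach down to 500 UMIs. On the tubule genes 9, 14 and 6 members sat at the limit of 2 UMIs, and 1, 2 and 0 cells lay just outside with 3. No UMI of Cd79a, C1qa or Lyz2 was found in 46, 80 and 61 members, and none of the tubule genes in 28, 57 and 35.

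The label was checked on 20 Treg genes that the gate did not use. In edgeR's quasi-likelihood test on UMIs summed per library and population, with the library as a block and Benjamini-Hochberg adjustment over 7967 genes, 11 of the 18 that could be tested were higher in gated cells and none was lower. Over all genes tested, 1.46% (116) were higher and 0.929% (74) lower at an adjusted p under 0.05 in the same edgeR test, 2.38% in either direction. The 18 genes had a median log2 fold change of 1.80, against -0.01 over all genes tested. In 13 of the 18 the 3 gated values lay above all 3 values of other CD4 cells, where 12.8% of all genes tested did. The gated cells were therefore called Tregs. The comparison cells all held a Cd4 UMI by rule while 29, 54 and 31 members did not, and with only the members that held Cd4 the edgeR test called 183 genes higher and 150 lower. DESeq2 called 66 and 44 in the main comparison, and gave no adjusted p for 18 of the 116 and 22 of the 74.

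Ikzf2 (Helios, a zinc finger factor of stable Tregs, chr1:69531214-69687245) was at 1061, 1007 and 977 CPM in Tregs, at 159, 193 and 143 CPM in other CD4 cells and at 38.3, 64.2 and 81.9 CPM in CD8 cells. The groups did not overlap, and the difference to other CD4 cells was several times the spread between libraries (log2 fold change 2.57, SE 0.14, adjusted p = 0.000323, edgeR). Its relative Ikzf4 (Eos), which works with Foxp3 in repression, was at 73.7, 95.8 and 78.2 against 8.73, 17.3 and 12.6 CPM (log2 fold change 2.60, SE 0.27, adjusted p = 0.00281). Lrrc32 encodes GARP, which anchors latent TGF-beta on the Treg surface, and was at 125, 120.3 and 120.5 against 0, 25.4 and 20.5 CPM. In Aoah-/- replicate 2 no UMI of Lrrc32 was found in other CD4 cells, and its fold change carried the widest error of the core genes that were higher (log2 fold change 2.96, SE 0.54). DESeq2 did not call Lrrc32 (adjusted p = 0.192) and gave no adjusted p for Ikzf4.

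Of the TNF receptor family, 3 core genes were several-fold higher in Tregs. Tnfrsf4 (OX40) was at 1385, 1353 and 1084 CPM in Tregs against 160.0, 264 and 190.5 CPM in other CD4 cells (log2 fold change 2.60, SE 0.16, adjusted p = 0.000384, edgeR). Tnfrsf18 (GITR) was at 965, 762 and 579.6 against 193, 185 and 151 CPM (log2 fold change 2.05, SE 0.13, adjusted p = 0.000384). Tnfrsf9 (4-1BB) was at 365, 291 and 195 against 16.0, 31.2 and 29.9 CPM (log2 fold change 3.37, SE 0.29, adjusted p = 0.00172). All 3 are costimulatory receptors known from Tregs, and in all 3 the lowest Treg library lay above the highest library of other CD4 cells. CD8 cells held 9.84, 12.8 and 30.4 CPM of Tnfrsf4 and 64.1, 68.9 and 74.8 CPM of Tnfrsf18. Other receptors of the family did not pass the edgeR test, among them Tnfrsf1b (log2 fold change 0.79, adjusted p = 0.106) and Cd27 (log2 fold change 0.24, adjusted p = 0.664).

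The remaining core genes that were higher in Tregs were Capg (an actin-capping protein), Itgae (the CD103 integrin chain, which binds E-cadherin on epithelium), Cd83, Sdf4 and Arl5a, with log2 fold changes of 1.95, 2.39, 2.03, 1.30 and 1.65. Itgae did not separate Tregs from CD8 cells, which held 27.5, 95.6 and 107 CPM against 84.7, 116 and 91.2 CPM in Tregs. Of the core genes that did not pass the test, Nrp1 was at 247, 183 and 225 against 93.1, 118 and 145 CPM (adjusted p = 0.0685) and Izumo1r (folate receptor 4) at 133, 202 and 352 against 72.7, 129.5 and 75.6 CPM (adjusted p = 0.100). Icos, a costimulator that follicular and effector CD4 cells carry too, was at 247, 299.6 and 495 against 506, 489 and 529 CPM, with the Treg values below in each library but without passing the test (adjusted p = 0.152, edgeR). Gpr83 and Tigit had too few UMIs to be tested.

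**Figure D1:**
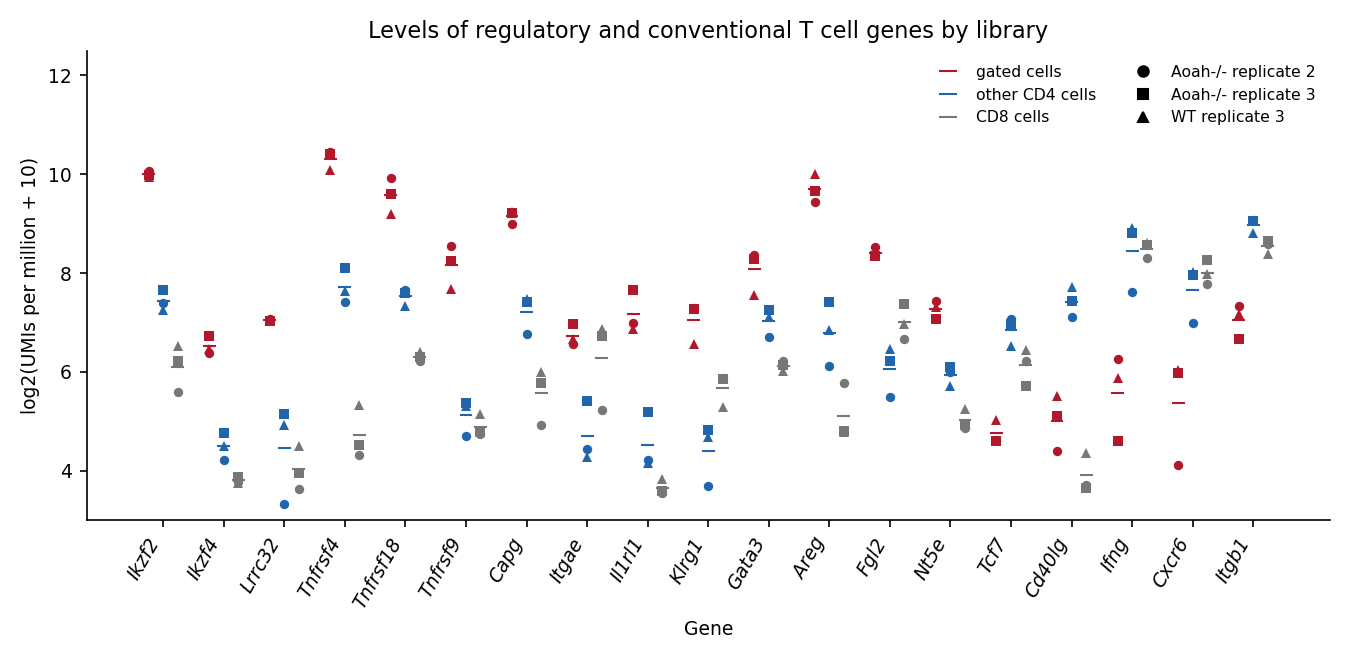
Level of each gene as log2 of CPM plus 10 (y axis) for 19 genes (x axis) in gated cells (red), other CD4 cells (blue) and CD8 cells (grey). Each symbol is 1 library and each bar the mean of the 3 libraries. For the genes from Ikzf2 to Nt5e the red symbols lie above the blue ones, and for the genes from Tcf7 to Itgb1 below them.

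Members that had entered through Ctla4, Il2ra and Cd4 without a Foxp3 UMI were compared with the others on core genes. The summed level of the 20 core genes was 5508, 5517 and 4911 CPM in these 33 cells, 6351, 6608 and 6713 CPM in cells with 1 Foxp3 UMI, and 7090, 7322 and 6208 CPM in cells with 2 or more. Other CD4 cells held 2228, 2948 and 2826 CPM and CD8 cells 1246, 1598 and 1882 CPM. The cells without Foxp3 thus lay below the Foxp3-positive members and well above other CD4 cells in every library. Members with a Cd4 UMI (6225, 7104 and 6136 CPM) and without one (7044, 6157 and 6714 CPM) overlapped.

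The second list held genes of effector Tregs in tissue. Of 18 tested, 6 were higher in Tregs and none lower, with a median log2 fold change of 1.44 (-0.01 over all genes, beside which the medians of the lists below stand too). In 12 all Treg values lay above those of other CD4 cells, against 12.8% of all genes tested. Areg (chr5:91139599-91148432), the growth factor of epithelial repair, was at 689, 795 and 1022 CPM in Tregs, 59.6, 159.6 and 105 CPM in other CD4 cells and 44.4, 17.8 and 17.6 CPM in CD8 cells. Every Treg library was several-fold above every library of the other 2 populations (log2 fold change 2.94, SE 0.23, adjusted p = 0.00121, edgeR), and 120 of the 238 Tregs held an Areg UMI, with 11.8% of its UMIs in the cell that held the most. Il1rl1 (chr1:40429570-40465415) was at 118, 192 and 107 against 8.73, 26.6 and 7.87 CPM (log2 fold change 3.22, SE 0.28, adjusted p = 0.00172). It was detected in 57 Tregs and in 22 of the 585 other CD4 cells. Klrg1, an inhibitory receptor of differentiated lymphocytes, was at 147, 145 and 84.7 against 2.91, 18.5 and 15.7 CPM (log2 fold change 3.26, SE 0.42, adjusted p = 0.00706), and Gata3, a transcription factor of type 2 lymphocytes and of ST2-positive Tregs, at 320.4, 304 and 179 against 94.5, 143 and 129 CPM (log2 fold change 1.06, SE 0.22, adjusted p = 0.0479). Dgat2 (triglyceride synthesis) and Penk (proenkephalin, the precursor of opioid peptides) completed the 6, and for Penk the groups overlapped, the WT library being low in both.

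Other members of this list did not pass the test. Il10, the anti-inflammatory cytokine, was at 55.2, 24.5 and 55.4 CPM in Tregs and 1.45, 13.9 and 0 CPM in other CD4 cells (adjusted p = 0.140, edgeR), from 44 UMIs in 18 Tregs. Itgb8, whose integrin activates TGF-beta, was at 81.0, 71.3 and 39.1 against 8.73, 20.8 and 22.0 CPM (adjusted p = 0.0566), and Pparg, the lipid-sensing receptor of fat-tissue Tregs, at 33.1, 26.5 and 6.51 against 7.27, 6.94 and 0 CPM (adjusted p = 0.125). For Il10 and Itgb8 the groups did not overlap, whereas for Pparg the WT Tregs lay among the other CD4 cells. Maf and Rora were abundant in both CD4 populations, with 471, 465 and 479 against 309.8, 435 and 346 CPM for Maf. Ccr8, a chemokine receptor of skin and tumour Tregs, had too few UMIs to be tested.

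Tregs with an Il1rl1 UMI were compared with the rest on 8 chosen genes. There were 14, 30 and 13 such Tregs, at median depths of 3235.5, 3770 and 3209 UMIs against 3803, 2868 and 3092 in the Tregs without an Il1rl1 UMI. Gata3 was at 715, 499 and 338 CPM in Tregs with Il1rl1 and at 224, 221 and 146 CPM in those without. Klrg1 was at 357, 260.0 and 225 against 96.2, 95.8 and 55.2 CPM and Rora at 677, 794 and 582 against 380.1, 415 and 465 CPM. For these 3 genes, and for Nfkb1 (715, 766 and 357 against 385, 375 and 347 CPM), the subset was higher in each library. Ikzf2 was at 1166, 1190.4 and 1727 against 1035, 929 and 819.5 CPM, also higher in each library. Areg did not follow in Aoah-/- replicate 2, where it was at 508 CPM in the subset and 733 CPM outside, while it was higher in the subset in both other libraries. Itgae was at 75.2, 137 and 131 against 87.0, 107 and 82.7 CPM, lower in the subset in Aoah-/- replicate 2, and Tcf7 at 0, 0 and 37.5 against 18.3, 20.3 and 19.7 CPM. Since the subset was drawn from the same cells and shares their libraries, these values are a description without a test.

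**Figure D2:**
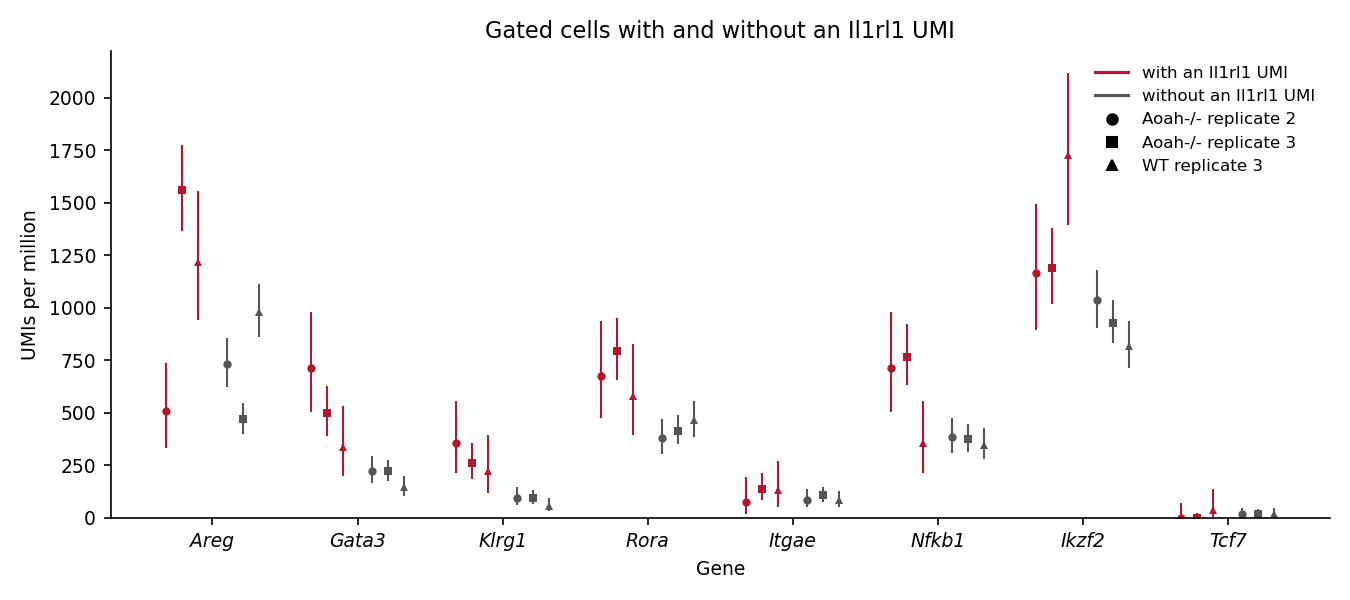
Levels in CPM (y axis, linear) of 8 genes (x axis) in Tregs with an Il1rl1 UMI (red) and without (grey), each symbol being 1 library with its exact 95% Poisson interval, which covers counting error only. Gata3, Klrg1 and Rora were higher in the red symbols of each library, whereas Areg was split between the libraries.

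Of 11 tested genes for suppressive enzymes and cytokines, 4 were higher in Tregs and none lower (median log2 fold change 0.74). Nt5e (CD73), which makes adenosine, was at 162, 124 and 149.8 against 53.8, 59.0 and 42.5 CPM (log2 fold change 1.41, SE 0.22, adjusted p = 0.0189, edgeR). Entpd1 (CD39), the enzyme before it, was not separated, at 55.2, 14.3 and 9.77 against 13.1, 20.8 and 18.9 CPM. Fgl2, a secreted suppressive protein, was at 357, 316 and 322 against 34.9, 64.8 and 78.7 CPM (log2 fold change 2.45, SE 0.23, adjusted p = 0.00196), while CD8 cells held 90.9, 156 and 116 CPM. S100a4 and the PD-1 ligand gene Pdcd1lg2 were higher too, with log2 fold changes of 0.75 and 1.46. Tgfb1 was at 195, 157 and 163 against 94.5, 123 and 112 CPM without passing the test (adjusted p = 0.182), and Ebi3, a subunit of interleukin-35, at 14.7, 40.8 and 26.1 against 4.36, 9.25 and 17.3 CPM. The other interleukin-35 subunit, Il12a, was not testable.

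Interleukin-2 signalling genes were split. Of 14 tested, 4 were higher and 1 lower, and the median log2 fold change was -0.08. The receptor's beta chain gene Il2rb was at 203, 139 and 159.6 against 75.6, 81.0 and 92.9 CPM (log2 fold change 0.93, adjusted p = 0.0487, edgeR), while the shared gamma chain gene Il2rg was at 192, 230.3 and 280.0 against 180.3, 232 and 227 CPM. The STAT5 targets Cish and Pim1 were higher, Pim1 at 571, 719.6 and 873 against 272, 315 and 316 CPM (log2 fold change 1.19, SE 0.14, adjusted p = 0.00500). The survival genes moved in opposite directions. Bcl2l1 (Bcl-xL) was at 66.3, 91.7 and 65.1 against 33.4, 32.4 and 25.2 CPM (log2 fold change 1.25), and Bcl2 at 95.8, 26.5 and 16.3 against 163, 81.0 and 58.2 CPM (log2 fold change -1.33), with overlapping libraries for Bcl2. Interleukin-2 itself, which Foxp3 represses, was at 3.68, 2.04 and 9.77 CPM in Tregs and 18.9, 25.4 and 36.2 CPM in other CD4 cells, just short of the threshold (adjusted p = 0.0513).

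Of 14 NF-kB and TNF receptor signalling genes tested, 7 were higher in Tregs and none lower, with a median log2 fold change of 0.76. In 9 of 14 all Treg values lay above those of other CD4 cells, against 12.8% of all genes tested. The subunit gene Rel (c-Rel), which is needed for Foxp3 induction in the thymus, was at 409, 612 and 615 against 149.8, 208 and 236 CPM (log2 fold change 1.41, SE 0.13, adjusted p = 0.00172, edgeR). Nfkb1 was at 449, 491 and 348 against 148, 238 and 216 CPM (log2 fold change 1.05) and Nfkb2 at 81.0, 85.6 and 45.6 against 27.6, 30.1 and 28.3 CPM (log2 fold change 1.24). Nfkbia, the inhibitor that NF-kB itself induces, was at 1293, 1655 and 1237 against 672, 782 and 853 CPM (log2 fold change 0.81, SE 0.12, adjusted p = 0.0166). Nfkbiz, Traf1 and Bcl3 completed the 7. Rela and Tnfaip3 were not separated, with log2 fold changes of -0.15 and -0.14.

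The promoters of 3 of these genes are shown because the genes moved together and carry an NF-kB motif near their start. The motif, GGG followed by any 2 bases and TTTCC, was searched on both strands in the 250 bases before each start of RefSeq's GRCm38.p6 annotation. It was found before 464 of 32851 starts (1.41%), and before any start of 447 of 27025 genes (1.65%). Of the 14 list genes 11 had an entry (Nfkb1, Relb and Nfkbiz did not) and 6 held the motif before any start (7 of the 16 starts of the 11 genes did), 3 of 5 that were higher in Tregs and 3 of 6 that were not. Nfkb2 has 3 starts, 2 of them with the motif, and the first of these is shown, whereas Rel and Nfkbia have 1 each. The last 100 bases before that start follow, 5′ to 3′ on the gene's strand, with the match in capitals. They lie at chr19:46304637-46304736 (plus strand) for Nfkb2, chr11:23770970-23771069 (minus strand) for Rel and chr12:55492648-55492747 (minus strand) for Nfkbia, and the match begins 11, 91 and 29 bases before the start.
Nfkb2: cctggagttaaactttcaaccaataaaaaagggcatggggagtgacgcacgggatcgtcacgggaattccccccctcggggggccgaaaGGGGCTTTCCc
Rel: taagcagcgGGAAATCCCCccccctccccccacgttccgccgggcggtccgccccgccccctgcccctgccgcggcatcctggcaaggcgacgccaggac
Nfkbia: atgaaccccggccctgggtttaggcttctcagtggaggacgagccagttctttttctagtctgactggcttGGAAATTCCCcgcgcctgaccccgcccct
The motif and the 3 genes were chosen after their values were seen. A match describes letters and not a bound site, and the share was alike in the genes that were higher and those that were not.

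**Figure D3:**
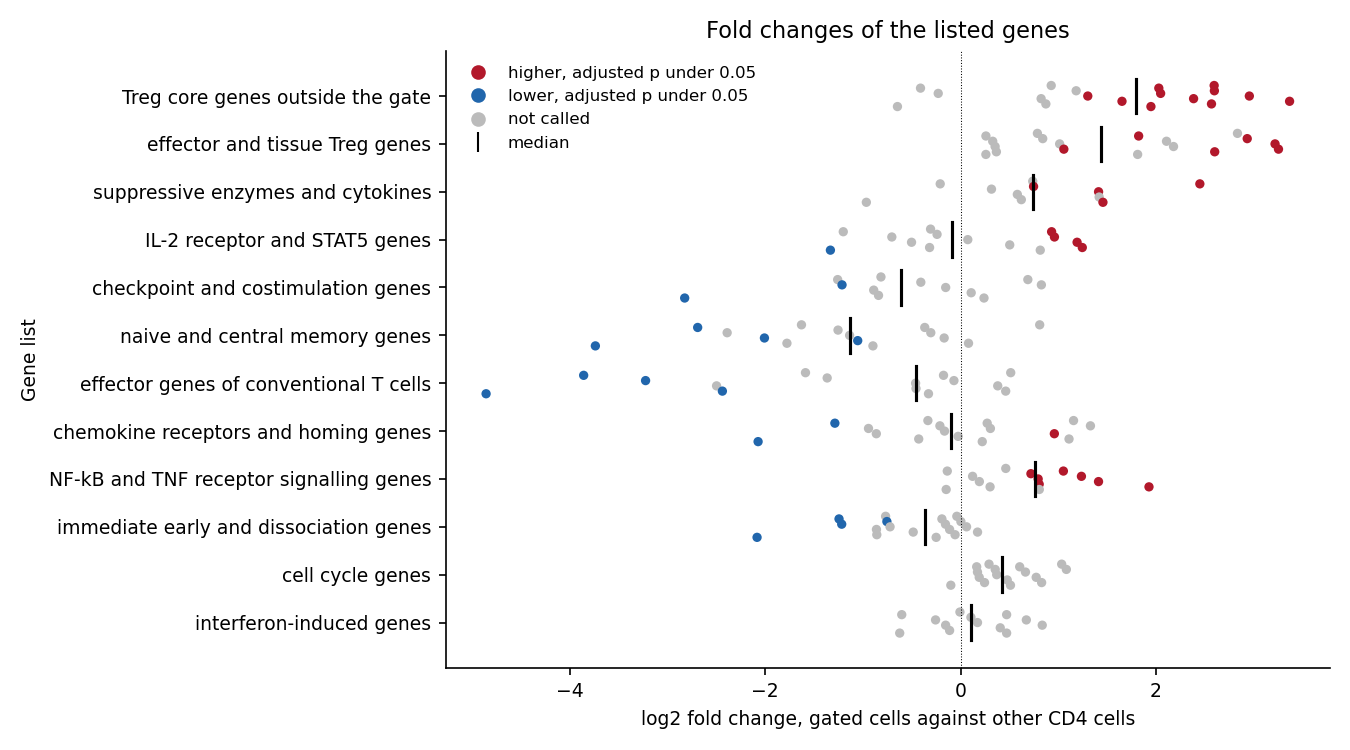
Log2 fold change of gated cells against other CD4 cells (x axis) for every tested gene of 12 lists (y axis). Points are single genes, red where higher and blue where lower at an adjusted p under 0.05, grey otherwise, bars are medians, and Dapl1, at 0 UMIs in gated cells, is drawn at its bound. The 2 Treg lists lie furthest to the right (medians 1.80 and 1.44) and the naive list furthest to the left (-1.14).

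Of 15 naive and central memory genes tested, 4 were lower in Tregs and none higher, the median log2 fold change was -1.14, and in 12 all 3 Treg values lay below those of other CD4 cells, against 8.52% of all genes tested. Tcf7 (TCF-1) was at 14.7, 14.3 and 22.8 CPM in Tregs and 125, 116 and 81.9 CPM in other CD4 cells (log2 fold change -2.69, SE 0.32, adjusted p = 0.00531, edgeR). Satb1, a chromatin organizer that conventional T cells keep, was at 40.5, 16.3 and 32.6 against 154, 81.0 and 104 CPM (log2 fold change -2.01, SE 0.25, adjusted p = 0.00651), and Klf2, which drives exit from tissue, at 258, 234 and 453 against 569, 526 and 748 CPM (log2 fold change -1.05, SE 0.15, adjusted p = 0.0116). Dapl1 had 0 UMIs in all Tregs and 82 in other CD4 cells, which, with a floor of 3 counts over the gate (2.81 CPM), makes it at least 13.4-fold lower. With Dapl1 at this bound the list's median stayed at -1.14. Ccr7, the lymph node homing receptor, did not pass the test, at 214, 55.0 and 101 against 88.7, 94.8 and 116 CPM, and its libraries overlapped.

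Of 15 cytotoxic and effector genes of conventional T cells tested, 4 were lower in Tregs and none higher (median log2 fold change -0.46). Ifng was at 66.3, 14.3 and 48.8 CPM in Tregs and 186, 441 and 474 CPM in other CD4 cells (log2 fold change -3.23, SE 0.46, adjusted p = 0.0125, edgeR). Gzma and Gzmk, granzymes of killer cells, were at 0, 6.12 and 0 and 0, 2.04 and 0 CPM in Tregs, so that 3 and 1 UMIs were found in the whole gate, against 32.0, 25.4 and 81.9 and 21.8, 38.2 and 31.5 CPM in other CD4 cells. Cxcr6, a homing receptor of effector T cells, was at 7.37, 53.0 and 55.4 against 116, 238 and 249 CPM (log2 fold change -2.44, SE 0.27, adjusted p = 0.00410). Il17a was found in the WT library only among both CD4 populations (0, 0 and 39.1 CPM in Tregs and 0, 0 and 29.9 CPM in other CD4 cells), in 2 cells of each. Gzmb went the other way without passing the test, at 36.8, 18.3 and 39.1 against 2.91, 11.6 and 3.15 CPM (adjusted p = 0.142). Tbx21, Tnf, Nkg7 and Ccl5 overlapped and did not pass (log2 fold changes -1.37, -0.46, -1.59 and -0.46), and neither did Ccl3 and Ccl4 (0.51 and 0.46).

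Among checkpoint and costimulation genes, 2 of 12 were lower and none higher in Tregs (median log2 fold change -0.61). Cd40lg, the helper ligand of conventional CD4 cells, was at 11.0, 24.5 and 35.8 against 128, 164 and 199.9 CPM (log2 fold change -2.83, SE 0.26, adjusted p = 0.00172, edgeR), and Slamf6 was lower by a smaller margin (log2 fold change -1.21). Pdcd1 (PD-1) was at 147, 199.8 and 107 against 87.3, 81.0 and 77.1 CPM without passing the test (adjusted p = 0.0932). Of 16 homing genes, the chemokine receptor gene Ccr2 was higher (151, 157 and 156 against 61.1, 94.8 and 74.0 CPM, log2 fold change 0.96) and Itgb1 and Gpr183 were lower. Itgb1, the beta-1 integrin chain that binds matrix, was at 151, 91.7 and 134 CPM in Tregs, 532, 522 and 438 CPM in other CD4 cells and 378, 389 and 325 CPM in CD8 cells (log2 fold change -2.07, SE 0.19, adjusted p = 0.00172). The integrin chain genes Itga4 and Itgb7 did not pass the test, with log2 fold changes of -0.21 and 0.27.

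Outside the lists, the largest rises that met the naming rule were those of Neb (nebulin, an actin-binding protein known from muscle; log2 fold change 3.76), Matk (a relative of the kinase Csk; 2.60), Ltb4r1 (a leukotriene B4 receptor; 2.58), Myo1e (a class I myosin; 2.51) and Pcyt1a (phosphatidylcholine synthesis; 2.42). Neb was at 81.0, 99.9 and 61.9 CPM in Tregs and 2.91, 11.6 and 1.57 CPM in other CD4 cells, and was found in 62 of the 238 Tregs. Ltb4r1 was at 58.9, 67.3 and 45.6 against 4.36, 19.7 and 3.15 CPM, found in 42 Tregs. The largest falls were those of Xcl1 (lymphotactin; -3.46), Fasl (the death ligand; -3.35), Ly6c2 (-2.79), Spp1 (osteopontin; -2.75), Sntb2 (-2.21), Themis (a T cell receptor signalling protein; -2.18), Ehd3 (-1.98) and Serpinb9 (an inhibitor of granzyme B; -1.91). All 13 passed the edgeR test, and their groups did not overlap, which for Spp1 rested on 1 cell. DESeq2 gave no adjusted p for the 5 genes that rose or for Sntb2 and Ehd3, and called the other 6. Fasl was at 3.68, 8.15 and 22.8 CPM in Tregs, 71.3, 120.3 and 137 CPM in other CD4 cells and 201, 204 and 181 CPM in CD8 cells. For Spp1, an abundant transcript of injured tubule, 49.1% of the UMIs in other CD4 cells came from 1 cell. Without the cell that held the most Spp1 UMIs in each library and population, a choice made after seeing the data, it was at 134, 122 and 52.5 CPM in Tregs and 138, 267 and 101 CPM in other CD4 cells, and the groups overlapped. Of the 30 genes named by this rule, Spp1 was the 1 whose groups overlapped when such cells were left out.

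Immediate early genes, which tissue digestion also induces, were on the low side in Tregs, with 4 of 18 lower, none higher and a median log2 fold change of -0.37. Btg2 was at 589, 718 and 739 against 1439.7, 1398 and 1769 CPM (log2 fold change -1.22, SE 0.12, adjusted p = 0.00209, edgeR), and Fos, Fosb and Egr1 were the other 3. Junb, Dusp1 and Nr4a1 had log2 fold changes of -0.11, 0.00 and -0.04 and were not separated. None of 13 interferon-induced genes and none of 16 cell cycle genes passed the test (medians 0.11 and 0.42).

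Markers of other cell types were measured in the same cells. B cell markers summed to 1554, 442 and 1798 CPM in Tregs and 858, 486 and 526 CPM in other CD4 cells, with the antigen presentation gene Cd74 the most abundant, and Ms4a1 at 0 in all gated cells. Macrophage and dendritic cell markers summed to 180.5, 122 and 137 against 185, 210.5 and 164 CPM (Apoe the most abundant). Markers of gamma-delta T cells, killer receptors and type 2 innate lymphoid cells, the last of which also carry Il1rl1, Gata3 and Areg, summed to 18.4, 12.2 and 45.6 against 71.3, 42.8 and 59.8 CPM, and Il5 was at 0 in all gated cells. The gamma-delta receptor genes Trdc and Tcrg-C1 were not among the genes of the count matrices. The sum thus covered 8 of 10 listed genes and does not settle whether gamma-delta T cells were in the gate. Proximal tubule markers, led by Kap, summed to 2784, 2699 and 2123 CPM in Tregs, 3172, 2859.9 and 2894 CPM in other CD4 cells and 33560.0, 39828 and 49789 CPM over all kept barcodes. Natural killer markers, led by Tyrobp and with Ncr1, Klrb1c and Klra8 at 0, summed to 114, 69.3 and 283 against 77.1, 70.5 and 45.7 CPM, and markers of the other tubule segments to 81.0, 318 and 48.8 against 483, 391 and 192 CPM. Granulocyte markers, led in Tregs by Il1r2, summed to 147, 275 and 58.6 against 18.9, 219 and 9.45 CPM. This list was higher in Tregs in all 3 libraries, and none of the other 6 was. Il1r2 alone made up 103, 102 and 48.8 CPM of its Treg sums. The list was not summed without Il1r2, so nothing about granulocytes is read from its direction. Endothelium and stroma markers summed to 313, 163 and 32.6 against 109, 141 and 291 CPM. Erythroid and platelet markers summed to 4729, 7448 and 453 against 11058, 3867 and 1716 CPM. Both of these sums changed direction between libraries. The part of all these markers in the differences between Tregs and other CD4 cells was not tested.

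The share of Tregs was compared between the libraries with exact Clopper-Pearson 95% intervals, which cover counting error only. Tregs made up 24.8% (19.4 to 30.8), 31.0% (26.2 to 36.2) and 29.9% (24.2 to 36.1) of CD4-lineage cells, that is, of Tregs and other CD4 cells together. Averaged over the Aoah-/- libraries, the share was below that of WT by a difference of -1.97 percentage points (SD 4.42 between the former), so no difference was detectable as counted. With each cell thinned to the UMI floor before gating, the shares were 26.5% (44 of 166), 27.5% (63 of 229) and 25.5% (38 of 149), and the difference turned to 1.51 percentage points. Thinned to 1000 UMIs, they were 27.6% (27 of 98), 27.7% (43 of 155) and 18.2% (16 of 88). Both Aoah-/- libraries then lay above WT, with overlapping intervals (19.0 to 37.5, 20.9 to 35.5 and 10.8 to 27.8). The direction thus changed with thinning, which was drawn once per depth and also left fewer cells. Neither the difference nor the cause of this change was tested. Of all kept barcodes, Tregs were 0.376%, 0.548% and 0.543% as counted, with the Aoah-/- libraries on both sides of the WT library.

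Of barcodes with a CD3 gene, Tregs were 2.68% (2.04 to 3.45), 2.70% (2.22 to 3.25) and 5.28% (4.16 to 6.61), higher in the WT library. The denominator moved with this share, since CD3 barcodes were 14.0%, 20.3% and 10.3% and CD8 cells 5.98%, 5.44% and 2.89% of kept barcodes. Other CD4 cells were 1.14%, 1.22% and 1.27%. After thinning, the share of CD3 barcodes was 2.43%, 1.98% and 3.27%, with intervals of both Aoah-/- libraries (1.77 to 3.25 and 1.52 to 2.52) that overlapped that of WT (2.32 to 4.46). After thinning to 1000 UMIs it was 1.71%, 1.64% and 1.51%, lowest in the WT library. This difference was not tested.

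**Figure D4:**
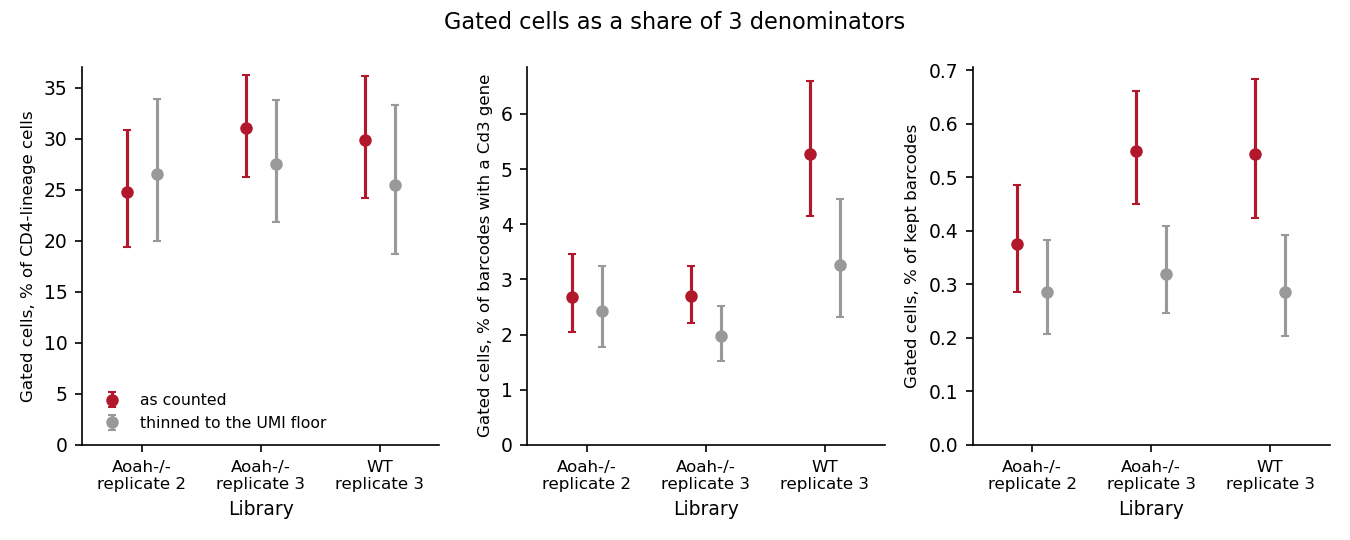
Gated cells as a percent (y axes, from 0) of CD4-lineage cells, of barcodes with a CD3 gene and of all kept barcodes in each library (x axes), with exact 95% intervals, as counted (red) and after thinning each cell to the UMI floor (grey). The 3 libraries overlap in the left panel, and the WT library lies highest in the middle panel.

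Between the genotypes, gated cells were compared without a test, as log2 of averaged Aoah-/- CPM over WT CPM after adding 10 to each, for the 1571 genes that reached 100 CPM in either genotype. A gene was called higher or lower where the Aoah-/- libraries lay on 1 side of WT and farther from it than from each other. This held for 17.4% (273, higher) and 27.6% (433, lower) of these genes, and the median ratio was -0.04. Ikzf2 had a ratio of 0.08 (SD 0.05 between the Aoah-/- libraries, as for the values that follow). Of 14 core genes at 100 CPM, Arl5a, Tnfrsf9 and Tnfrsf4 were higher and Icos and Izumo1r lower by this rule. Tnfrsf9 had a ratio of 0.72 (SD 0.22) and Icos of -0.83 (SD 0.19), whereas in other CD4 cells the ratios were -0.25 (SD 0.47) and -0.09 (SD 0.03). Of 10 tissue Treg genes, Gata3 (0.77, SD 0.05), Klrg1 (0.72, SD 0.02), Batf and Penk were higher and Areg (-0.46, SD 0.14), Maf and Lgals1 lower. Maf was nearly level, at 471, 465 and 479 CPM with a ratio of -0.03, close to the median of all genes. The call of Areg rested on single cells. It was at 689, 795 and 1022 CPM, and without the Treg that held the most Areg UMIs in each library at 563, 727 and 692 CPM, with WT between the Aoah-/- libraries. By the same step, chosen after seeing the data, Maf was no longer called either, and 213 of the 273 higher and 354 of the 433 lower genes kept their call, and 1 of the lower genes turned higher.

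Outside the marker lists of other cell types, Penk was among the 5 largest ratios of genes called higher, at 199, 165 and 26.1 CPM (log2 ratio 2.41, SD 0.18). It was detected in 8 of 58, 13 of 108 and 3 of 72 Tregs. In other CD4 cells it was at 46.5, 50.9 and 6.30 CPM, with both Aoah-/- libraries above WT as well, from 2, 6 and 3 cells. The order was the opposite in CD8 cells (0, 0.786 and 23.3 CPM, log2 ratio -1.68) and over all kept barcodes (1.02, 2.35 and 7.97 CPM). The other 4 were Tm4sf1 (133, 177 and 0 CPM), Ly6c1 (228, 120.3 and 6.51 CPM), Timp3 (313, 265 and 35.8 CPM) and the predicted gene Gm8730 (273, 192 and 45.6 CPM). All 5 reached 100 CPM in the Aoah-/- libraries only, so the filter kept them through the libraries where they were high. The size of these ratios thus follows in part from the filter. In other CD4 cells Tm4sf1 and Ly6c1 went the other way (log2 ratios -1.21 and -1.18), as they did in CD8 cells (-1.07 and -0.31), and Timp3 had ratios of 0.04 and -0.59 there. Tm4sf1 and Timp3 are known from endothelium and stroma. Markers of these cells summed to 313, 163 and 32.6 CPM in Tregs (Emcn and Pecam1 the most abundant, and Col1a2 at 0 in all gated cells). In Tregs both Aoah-/- libraries thus lay above WT here too. The sums were highest in WT in other CD4 cells (109, 141 and 291 CPM) and in CD8 cells (59.4, 129 and 147 CPM). The part of these markers in the result was not tested. Tm4sf1 came from 10 Tregs, 37.4% of its UMIs from 1 of them, and with 0 UMIs in the WT Tregs it was at least 15.9-fold higher, against a floor of 3 counts in that library. Erythroid markers, led by Hbb-bs, were at 4729, 7448 and 453 CPM in Tregs and differed the same way. They were lowest in WT in other CD4 cells too (11058, 3867 and 1716 CPM). In CD8 cells (3197, 4768 and 6451 CPM) and over all kept barcodes (2622, 3546 and 7768 CPM) they were highest in WT. Gm8730 was at 104, 85.2 and 14.2 CPM over all kept barcodes, with both Aoah-/- libraries above WT as in Tregs.

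With the same genes left out, the 5 lowest ratios of genes called lower in Aoah-/- Tregs all belonged to genes of dividing cells. These were Cdca8, Ube2c, Mki67, Hist1h1d and Nusap1, with log2 ratios of -2.78, -2.47, -2.41, -2.26 and -2.20. All 5 reached 100 CPM in the WT library only, so the filter kept them through the library where they were high. Mki67, which marks cells outside the resting state, was at 62.6, 63.2 and 378 CPM in Tregs and 116, 50.9 and 81.9 CPM in other CD4 cells. Of 9 cell cycle genes at 100 CPM, 8 were below WT in both Aoah-/- libraries, with a median ratio of -2.01 (-0.04 over all genes). Among these, Cdca8, Ube2c, Mki67 and Birc5 were below 100 CPM in both Aoah-/- libraries and met the filter through WT alone. The count and the median thus follow in part from the filter, and no conclusion is drawn from them. Without this filter, the 16 cell cycle genes in the files summed to 1598, 1309 and 4207 CPM in Tregs and to 2010, 1579 and 1664 CPM in other CD4 cells. The WT Tregs lay above all other sums, and other CD4 cells of the 3 libraries lay close together.

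Much of the cell cycle signal came from few cells, and the WT library stayed above without them. In the 3 libraries, the 3 Tregs with the most cell cycle UMIs held 61.3%, 49.7% and 58.9% of them, and without these cells the sums were 768, 731 and 2013 CPM. Cells with an Mki67 UMI were similarly frequent, at 7 of 58 (12.1%), 11 of 108 (10.2%) and 7 of 72 (9.72%), but the most Mki67 UMIs in a cell were 9, 18 and 41. Without the 3 top cells Mki67 was at 18.3, 20.4 and 83.4 CPM. Leaving out the 5% of cells with the most UMIs in each library, a choice made after seeing the data, moved the Mki67 ratio to -1.43 and the Hist1h1d ratio to -0.58. It moved the Penk ratio to 2.84. Without the Treg that held most of a gene's UMIs in each library, Hist1h1d alone of the 10 genes named here was no longer called (0, 14.6 and 28.0 CPM).

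**Figure D5:**
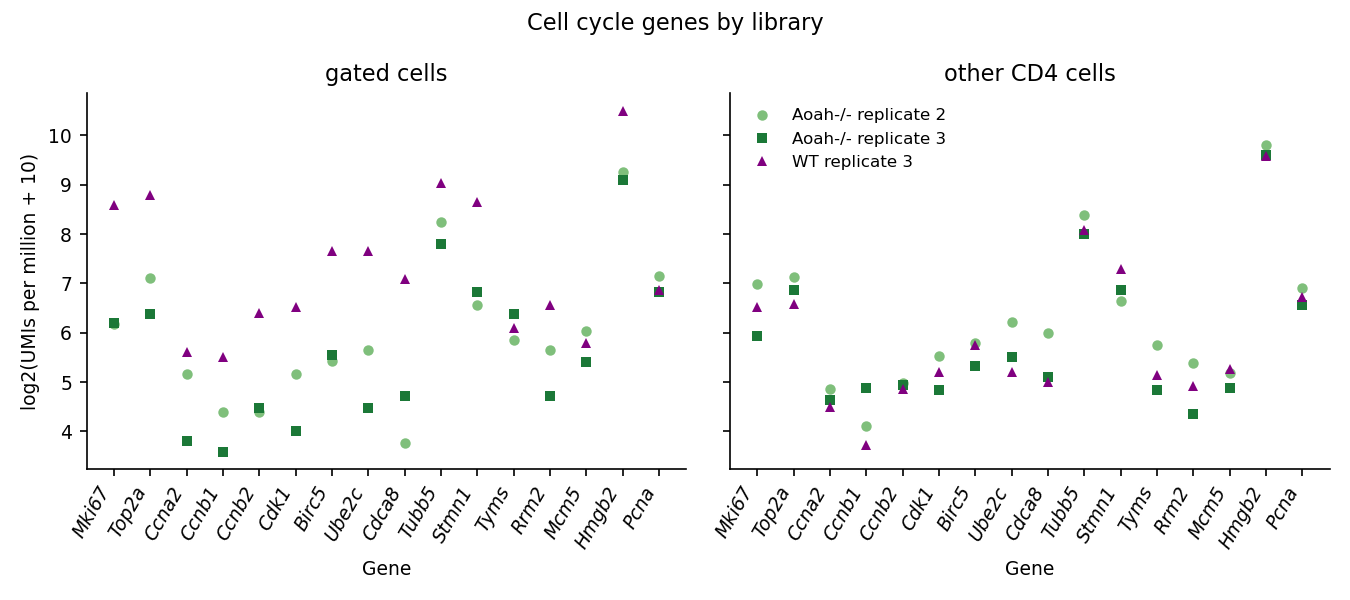
Level of 16 cell cycle genes (x axis) as log2 of CPM plus 10 (y axis) in gated cells (left) and other CD4 cells (right), 1 symbol per library. In gated cells the WT library (purple) lies above both Aoah-/- libraries (green) for all genes except Tyms, Mcm5 and Pcna, and in other CD4 cells only for Stmn1 and Mcm5.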

How the data were processed

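Droplet single-cell RNA libraries of 3 kidney samples were analysed from the deposited UMI count matrices (27998 genes, 65 repeated symbols, whose rows were kept apart). According to the submitters' processing notes the authors used Cell Ranger 3.1.0, STAR, mm10 and Seurat 4.2.0, while the deposited matrix headers name Cell Ranger 6.1.2. The tables hold whole raw counts.

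Tregs were gated by the rule given above. The members, gene lists and tests were chosen with earlier results of these data known. No doublet caller was run: the limits on B cell, myeloid and tubule genes and an alternative without the cells with the most UMIs stood in for it. UMIs were summed per library and population and tested with edgeR 4.0.16 in R 4.3.3 (TMM, glmQLFit and glmQLFTest, library as a block, genes with at least 30 UMIs over the 6 sums, Benjamini-Hochberg adjusted p under 0.05). The 15 gate genes and 13 mitochondrial genes were not tested. The SE is the log2 fold change divided by the root of F. The script was tested on simulated data. The populations compared come from the same libraries, which is where the pairing comes from. DESeq2 1.42.0 was an alternative. Levels, shares and intervals were computed in Python 3.11.15 with numpy 2.4.6, scipy 1.17.1 and pandas 2.3.3, and plots with matplotlib 3.10.9.

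Genes named were members of the lists, and the 15 largest rises and 15 largest falls among genes past the threshold with the same sign in all 3 libraries and a mean of at least 50 CPM in the higher population, leaving out gate, mitochondrial and other cell types' marker genes. Between genotypes, they were the 5 largest rises and 5 largest falls at 100 CPM or more that were called by the rule in the text, with the same kinds of genes left out. A level in CPM is a sum over cells divided by their total UMIs, so that deep cells weigh more. Promoters and gene positions came from RefSeq and GENCODE tables of the same build. Some genes are not reported here.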

Additional observations from a re-analysis of the deposited data

Results flagged for a closer look

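Hmgb2, a chromatin protein that is abundant in dividing cells, was higher in Tregs than in other CD4 cells in the WT library (1443 against 762 CPM, log2 ratio 0.91 with 10 CPM added) and lower in both Aoah-/- libraries (600.4 against 889 and 538 against 771 CPM). These directions exceeded counting error alone in each library, which treats UMIs of a cell as independent, and few cells held much of the cell cycle UMIs (58.9% in 3 cells of the WT Tregs). The difference between the genotypes was not tested, since there was 1 WT library.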

How the results depend on the processing

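The counts of genes higher and lower in Tregs (116 and 74) were 66 and 44 by DESeq2, which shared 64 and 37 of them, and 223 and 275 with no filter on low counts. Without the 5% of cells with the most UMIs in each population and library they were 329 and 265, with at most 20% mitochondrial UMIs 193 and 156, with members that held Cd4 only 183 and 150, and against other CD4 cells without Ctla4 and Il2ra 191 and 161. After thinning each cell to the UMI floor 173 were higher and 128 lower. Without cells with 3 or more stroma and endothelium UMIs, added after seeing the data, 212 were higher and 171 lower. The cause was not tested. With no replicate block there were 122 and 82, of which 101 and 53 were shared. Leaving out 1 library at a time gave 81 to 116 higher (lowest without WT, 69 shared) and 80 to 108 lower. RLE factors gave 117 and 78, total UMIs 147 and 82, a minimum of 100 UMIs 129 and 94, Foxp3-positive members alone 107 and 83, and no B cell, myeloid or tubule UMI at all 133 and 100. None of the 30 named genes reversed under any of these. DESeq2 no longer called Lrrc32 and gave no adjusted p for 9 others (Neb, Matk, Dgat2, Ikzf4, Ltb4r1, Myo1e, Pcyt1a, Sntb2 and Ehd3). No longer called were Dgat2, Sntb2 and Ehd3 without Aoah-/- replicate 3, Matk and Egr1 without WT, Egr1 with no replicate block, Ehd3 without B cell, myeloid and tubule UMIs and Spp1 without the deepest cells. Not tested were Matk, Dgat2, Ltb4r1 and Myo1e with a minimum of 100 UMIs and Matk without B cell, myeloid and tubule UMIs.

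The Treg share of CD4-lineage cells (-1.97 percentage points) turned to 1.51 when thinned to the UMI floor and to 9.46 when thinned to 1000 UMIs, and ranged from -5.09 to 1.16 with 1 Aoah-/- library left out (1.16 without Aoah-/- replicate 2). The share of kept barcodes (-0.0805) turned to 0.0161, 0.0760 and, with no UMI floor, 0.000237, and ranged from -0.167 to 0.00591. In 8 of the 74 genes lower in Tregs, Dcn, Cryab and Fst among them, more than 50% of the UMIs in other CD4 cells came from 1 cell, and in 0 of the 116 higher genes was this so in Tregs.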

Other observations

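Several genes outside the Treg lists were higher in Tregs and were chosen here after their values were seen. Il1r2, the decoy receptor for interleukin-1, which was kept out of the named genes because it had been listed as a granulocyte marker, was at 103, 102 and 48.8 CPM in Tregs and 5.82, 20.8 and 4.72 CPM in other CD4 cells (log2 fold change 2.90, SE 0.37, adjusted p = 0.00659, edgeR). It was detected in 11, 17 and 8 Tregs. The whole granulocyte list, Il1r2 included, summed to 147, 275 and 58.6 CPM in Tregs and 18.9, 219 and 9.45 CPM in other CD4 cells, and its part in the result was not tested. Of the regulators of G protein signalling, Rgs2 was higher at 983, 1025 and 1215 against 339, 461 and 449 CPM and Rgs16 at 99.4, 145 and 127 against 29.1, 39.3 and 37.8 CPM (log2 fold changes 1.32 and 1.75). Rgs1, a gene of the core list, did not pass the edgeR test, at 442, 667 and 785 against 564, 914 and 946 CPM (log2 fold change -0.41, adjusted p = 0.137). Ramp1, a subunit of the receptor for the neuropeptide CGRP, was at 247, 267 and 267 against 29.1, 85.6 and 59.8 CPM (log2 fold change 2.15, SE 0.25, adjusted p = 0.00517), and Hopx, which is known from induced Tregs, at 538, 901 and 642 against 180.3, 264 and 224 CPM (log2 fold change 1.58, SE 0.13, adjusted p = 0.00131). Mcm3, Lig1, Dut and the histone variant gene H2afz were higher in all 3 libraries (log2 fold changes 1.42, 1.27, 0.95 and 1.53). They were picked singly and form no fixed list. None of the 16 listed cell cycle genes passed the edgeR test, Mcm5 and Pcna among them (adjusted p = 0.269 and 0.707, edgeR).

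Some ligands of T cell receptors for cytokines and chemokines were measured over all kept barcodes, most of which were other kidney cells. Il33, the ligand of Il1rl1, was at 3.92, 2.87 and 3.50 CPM. Cxcl16, the ligand of Cxcr6, which was lower in Tregs than in other CD4 cells, was at 97.9, 119.6 and 71.8 CPM and Tgfb1 at 41.0, 42.0 and 24.9 CPM, with both Aoah-/- libraries above WT for both. The level over all barcodes follows the mix of cell types, so these values are a description.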
